A study of Mus musculus with 12 samples.

Results

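The genes of V(D)J recombination described here are Rag1, Rag2 and Dntt. Every probe set whose only gene symbol on the array's annotation is one of these was taken, which gave 3 of 8251 genes and 6 of 12488 probe sets, 2 for Rag1 (93683_at and 161740_r_at), 1 for Rag2 (101163_at) and 3 for Dntt (103961_s_at, 161409_f_at and 103962_at). All 6 passed a filter on low signal, which asked for a mean of 100 or more in any of the 6 conditions. The study asked what the loss of MED23, a subunit of the Mediator complex that links transcription factors to RNA polymerase II, does to developing T cells and to their response to the T-cell receptor. Total thymocytes of 6 mice were measured on 12 Affymetrix mouse genome arrays, 1 array per mouse and treatment. The MED23 null group was 2 Med23flox/flox;Lck-Cre mice, and the controls were 2 Med23+/+;Lck-Cre mice (Lck-Cre), which carry the Cre transgene without floxed alleles, and 2 Med23flox/flox mice (Med23flox), which carry the floxed alleles without Cre. All mice were female, 6 to 7 weeks old and of the strain C57Bl/6 x 129Sv (F1).

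The thymocytes of each mouse rested for 4 h and then spent 3 h in a new well, with plate-bound antibody to CD3 (αCD3), which engages the T-cell receptor complex, or without it (mock). Cre under the Lck promoter acts in developing T cells, so that other cells of the thymus keep Med23, and the cells were not sorted. Each genotype is represented by 2 mice.

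V(D)J recombination assembles the genes of antigen receptors from separate gene segments. RAG1 and RAG2 together form the endonuclease that cuts DNA at the signals beside each segment, RAG1 holding the active site and RAG2 binding modified histones on open chromatin. TdT, the product of Dntt, then adds untemplated nucleotides to the opened ends before they are joined. In the thymus both Rag genes are active in double negative (DN) cells that rearrange the TCRβ genes and again in double positive (DP) cells that rearrange TCRα, and they are silenced once a cell is positively selected and becomes a single positive (SP) cell.

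Rag1 and Rag2 are neighbours that face each other on chromosome 2. In the RefSeq annotation of GRCm38.p6 Rag2 spans 101624712 to 101632528 on the plus strand and Rag1 spans 101638252 to 101649532 on the minus strand. The lower coordinate of Rag1 is thus 5724 above the upper coordinate of Rag2. Dntt lies on chromosome 19 from 41029275 to 41059525 and has 2 curated transcripts. The 250 bases before each RefSeq start are shown because all 3 genes are read by sequence-specific factors of the thymocyte, whose transcripts are described further on. Capitals mark matches on either strand to the E-box CANNTG, to GATA and to the Runx letters TGTGGT, and the sequences run from 5′ to 3′ on the strand of the gene.
Rag1 chr2:101649533-101649782, minus strand: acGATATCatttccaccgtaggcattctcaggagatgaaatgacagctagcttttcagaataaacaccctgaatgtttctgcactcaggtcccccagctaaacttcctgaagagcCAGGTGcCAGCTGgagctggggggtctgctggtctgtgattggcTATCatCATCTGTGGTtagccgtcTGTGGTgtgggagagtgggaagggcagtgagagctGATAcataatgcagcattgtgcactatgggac
Rag2 chr2:101624462-101624711, plus strand: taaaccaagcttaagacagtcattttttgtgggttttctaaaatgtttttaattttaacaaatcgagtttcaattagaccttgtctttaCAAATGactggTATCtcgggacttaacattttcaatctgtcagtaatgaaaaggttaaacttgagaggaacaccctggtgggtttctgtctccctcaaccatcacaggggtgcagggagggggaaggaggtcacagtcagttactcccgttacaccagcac
Dntt chr19:41029025-41029274, plus strand: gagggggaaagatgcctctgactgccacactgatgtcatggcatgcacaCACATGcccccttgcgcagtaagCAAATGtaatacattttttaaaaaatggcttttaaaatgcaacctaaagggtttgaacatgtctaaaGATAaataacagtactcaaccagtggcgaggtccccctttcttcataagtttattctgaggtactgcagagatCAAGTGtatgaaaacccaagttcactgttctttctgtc

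The Rag1 window held 3 E-box matches, 4 GATA matches and 2 Runx matches, of which a pair of GATA matches overlap and an E-box match overlaps a Runx match. The Rag2 window held 1 E-box and 1 GATA match, and the Dntt window 3 E-box matches and 1 GATA match, and neither held the Runx letters. Among 32851 windows of the same length before RefSeq starts, 66.2% held an E-box match, 53.6% a GATA match and 14.0% a Runx match. Other letters searched on both strands were GGAA (Ets, in 93.4% of windows), CTTTG (Tcf/Lef, 48.6%), AACNG (Myb, 74.2%), CCAAT (33.8%) and TATAAA (12.4%). GGAA was in all 3 windows, AACNG in those of Rag2 and Dntt, CCAAT in that of Rag1, and CTTTG and TATAAA in none of them. These are matches of letters and not sites shown to be bound.

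The deletion was checked first at Med23 itself, whose probe set gave signals of 207 and 268 in mock MED23 null cells, against 288 to 424 in the 4 mock controls, and of 239 and 252 after αCD3, against 310 to 489 in controls. The null arrays lay below the control arrays, but the differences did not pass the test (adjusted p = 0.621 in mock and 0.738 after αCD3, limma with Benjamini-Hochberg adjustment over 9478 probe sets), and the files do not say if these probes match the deleted exons. In thymus of this genotype the study itself showed efficient deletion by Southern blot and a near total loss of MED23 protein by western blot. Of 4 measured genes known to respond to the T-cell receptor, 3 (Nr4a1, Egr2 and Cd5) rose with αCD3 over all mice, while Egr1 had an adjusted p of 0.0775 (the median over the 4 genes was 2.48 on the log2 scale). The median was 2.84 in control and 1.76 in MED23 null mice. The response in MED23 null mice was the smaller for 4 of 4 genes, with 0 called. The study had reported lower αCD3-inducible expression of Egr1, Egr2 and Cd5 in MED23 null thymocytes from these arrays. One array stood apart, that of αCD3-treated Med23flox replicate 1, with a lower quartile of signal of 85.3 against at most 58.4 on the other 11 and a mean correlation with the other arrays of 0.905 against 0.937 to 0.945.

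**Figure D1:**
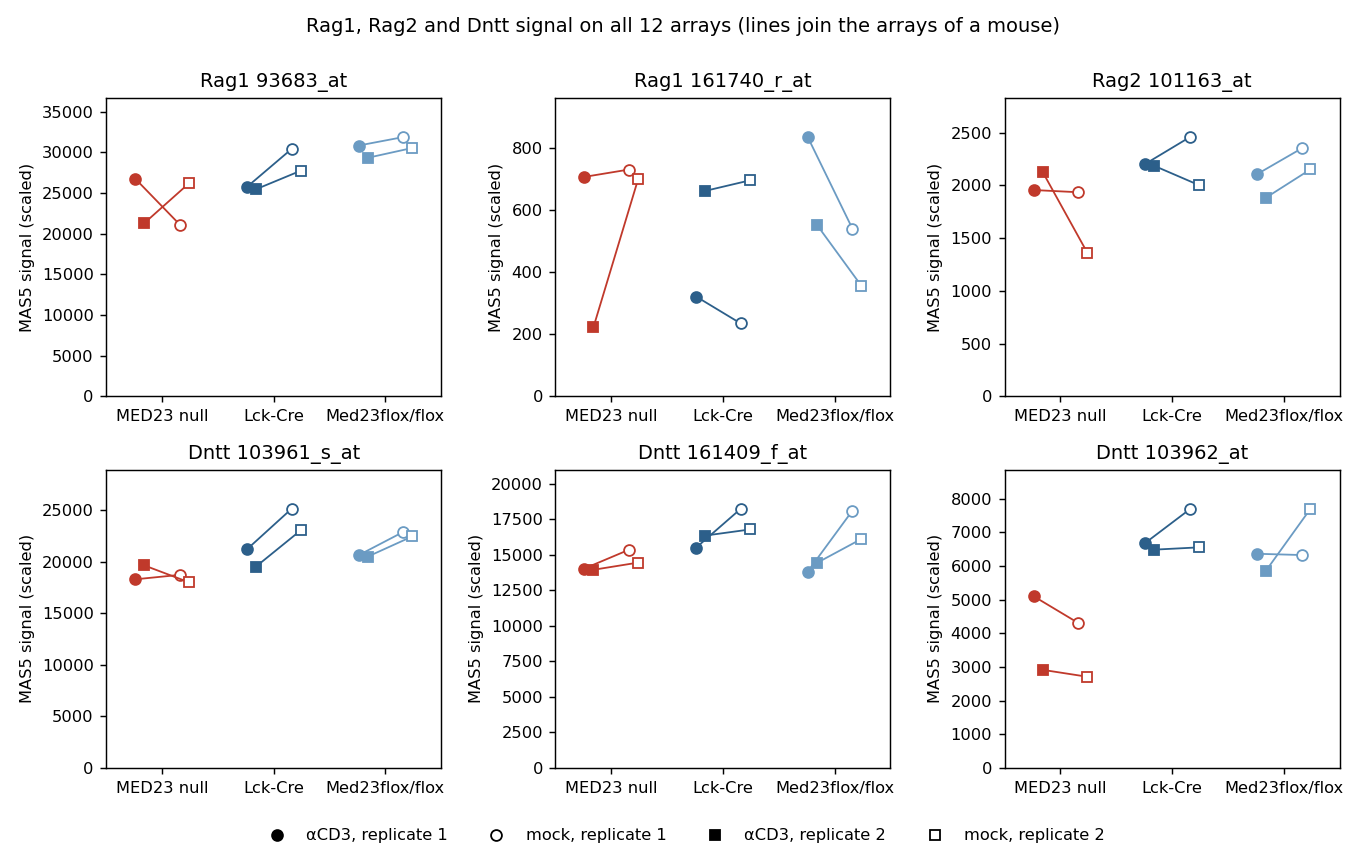
Scaled MAS5 signal (linear vertical axes from 0, with a scale of their own) of each Rag1, Rag2 and Dntt probe set on all 12 arrays, by genotype, with filled symbols for αCD3, open symbols for mock, circles for replicate 1, squares for replicate 2 and lines joining the arrays of a mouse. All 4 MED23 null arrays lie below all 8 control arrays for Dntt 103962_at, and the open symbols of MED23 null mice lie below those of the controls in every panel but that of Rag1 161740_r_at.

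Rag1 was read by 2 probe sets that did not behave alike. On 93683_at the mock signal was 21097 and 26199 in MED23 null cells, against 30430 and 27742 in Lck-Cre and 31890 and 30546 in Med23flox cells. The groups did not overlap, and the null mean was 0.784 of the control mean (23648 ± 3608, SD, n = 2, against 30152 ± 1738, SD, n = 4). After αCD3 the signal was 26760 and 21300 in MED23 null cells, against 25758 and 25468 in Lck-Cre and 30850 and 29336 in Med23flox cells. Here the groups overlapped, since null replicate 1 was above both Lck-Cre mice. The log2 difference, MED23 null minus control, was -0.36 in mock (95% interval -0.73 to 0.02, adjusted p = 0.679) and -0.22 after αCD3 (-0.66 to 0.23, adjusted p = 0.941), neither past the threshold of 0.05.

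The other Rag1 probe set, 161740_r_at, carries the suffix that Affymetrix gave to probe sets chosen under relaxed design rules. Its mock signal was 730 and 698 in MED23 null cells, against 234 and 695 in Lck-Cre and 540 and 356 in Med23flox cells. Both null arrays were above all controls, but null replicate 2 only barely (698 against 695 in Lck-Cre replicate 2). After αCD3 it was 706 and 222 in MED23 null cells, against 321 and 661 in Lck-Cre and 834 and 553 in Med23flox cells. Null replicate 1 was then within the control range and null replicate 2 below it, and the spread among controls was large, with a coefficient of variation of 44.4% over the mock controls against 5.76% for 93683_at. The null minus control difference was 0.69 in mock (95% interval -0.20 to 1.58, adjusted p = 0.734) and -0.43 after αCD3 (-1.57 to 0.71, adjusted p = 0.964). The signs of the 2 Rag1 probe sets were opposite in mock and alike after αCD3, and over the 12 arrays their log2 signals had a correlation of 0.07, given as a description since arrays share mice and scaling.

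Rag2, measured by 101163_at, had a mock signal of 1935 and 1363 in MED23 null cells, against 2457 and 2002 in Lck-Cre and 2349 and 2151 in Med23flox cells. Both null mice were below all 4 controls, and null replicate 2 was the lowest by far. After αCD3 its signal was 1956 and 2128 in MED23 null cells, against 2203 and 2185 in Lck-Cre and 2105 and 1882 in Med23flox cells, and the groups overlapped. The log2 difference, MED23 null minus control, was -0.45 in mock (95% interval -0.90 to 0.00, adjusted p = 0.670) and -0.03 after αCD3 (-0.43 to 0.36, adjusted p = 0.984). The mock value was -0.20 without null replicate 2 and -0.69 without null replicate 1.

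Dntt was read by 3 probe sets, and the size of the difference depended on which was used. They also differed in level. Counted from the highest signal of each array, 103961_s_at ranked 30 to 54, 161409_f_at 51 to 75 and 103962_at 150 to 557. The part of signal level in the size of the differences was not tested. The suffix of 103961_s_at marks probes shared by several transcripts and that of 161409_f_at probes shared by a family of sequences, while 103962_at has neither. Mouse Dntt is known to be spliced into a short and a long TdT, but the files do not place the probes on the transcripts, so which transcript each probe set reads was not tested.

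On 103962_at the mock signal was 4305 and 2710 in MED23 null cells, against 7684 and 6550 in Lck-Cre and 6323 and 7697 in Med23flox cells. The null mean of 3507 ± 1128 (SD, n = 2) was 0.497 of the control mean of 7064 ± 730 (SD, n = 4). After αCD3 the signal was 5099 and 2915 in MED23 null cells, against 6682 and 6482 in Lck-Cre and 6361 and 5852 in Med23flox cells, and the null mean was 0.632 of the control mean. Every null array lay below every control array in both treatments, and in both the lower of the null mice was replicate 2.

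The log2 difference on 103962_at, MED23 null minus control, was -1.03 in mock (95% interval -1.55 to -0.51, unadjusted p = 0.00239, adjusted p = 0.328) and -0.71 after αCD3 (-1.29 to -0.13, unadjusted p = 0.0233, adjusted p = 0.729). Over both treatments it was -0.87 (-1.35 to -0.39, adjusted p = 0.386). None passed after adjustment over 9478 probe sets. Without null replicate 2 the mock difference was -0.70 and the αCD3 difference -0.31, and without null replicate 1 they were -1.36 and -1.11. The study had itself listed this probe set as lower in mock MED23 null cells of these arrays, so its direction here is not independent evidence.

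On 103961_s_at the mock signal was 18728 and 18008 in MED23 null cells, against 25136 and 23031 in Lck-Cre and 22888 and 22449 in Med23flox cells. Both null mice were below all controls, and their mean was 0.786 of the control mean, a log2 difference of -0.35 (95% interval -0.68 to -0.02, adjusted p = 0.652). After αCD3 the signal was 18295 and 19642 in MED23 null cells, against 21202 and 19522 in Lck-Cre and 20631 and 20486 in Med23flox cells. Null replicate 2 was then above Lck-Cre replicate 2, and the difference was -0.11 (-0.48 to 0.27, adjusted p = 0.969).

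On 161409_f_at the mock signal was 15350 and 14440 in MED23 null cells, against 18226 and 16768 in Lck-Cre and 18090 and 16101 in Med23flox cells, again without overlap. After αCD3 it was 14025 and 13935 in MED23 null cells, against 15489 and 16338 in Lck-Cre and 13812 and 14410 in Med23flox cells. The only control below the null mice was Med23flox replicate 1, on the array that stood apart. The log2 difference was -0.21 in mock (95% interval -0.55 to 0.12, adjusted p = 0.785) and -0.10 after αCD3 (-0.49 to 0.29, adjusted p = 0.970).

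**Figure D2:**
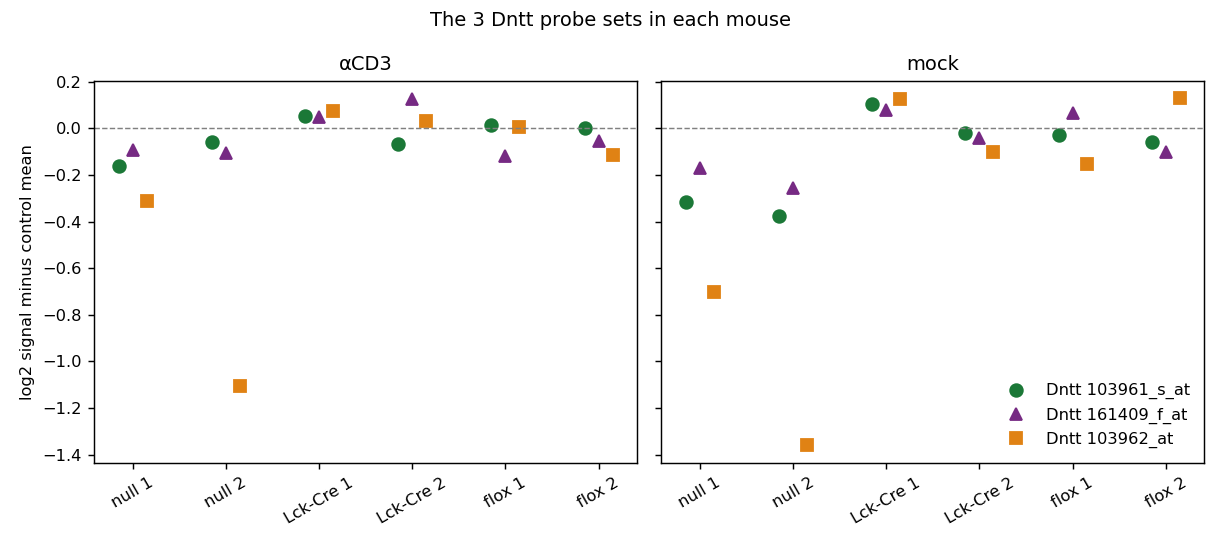
Log2(signal + 50) of the 3 Dntt probe sets in each mouse minus the mean of the 4 controls of the same treatment (vertical axis, log2 units), with αCD3 on the left and mock on the right and a symbol per probe set. The controls (flox stands for Med23flox) lie near 0 on all 3, and 103962_at lies lowest in both MED23 null mice, most in replicate 2.

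The difference between Dntt probe sets was compared within mice, as the change on one minus the change on another. Averaged over both treatments, 103962_at minus 103961_s_at was -0.27 in null replicate 1 and -1.02 in null replicate 2 relative to the control mean, against -0.07 to 0.03 in the 4 controls. The mean for null mice was lower than that for controls by a log2 difference of -0.64, and for 103962_at minus 161409_f_at the difference was -0.71. Each gave p = 0.133 in an exact two-sided permutation test of 2 against 4 mice, which is the smallest p that this form of the test can give with these mice. The null mice also differed from each other on 103962_at, and null replicate 1 was the nearer to the controls on both treatments.

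**Figure D3:**
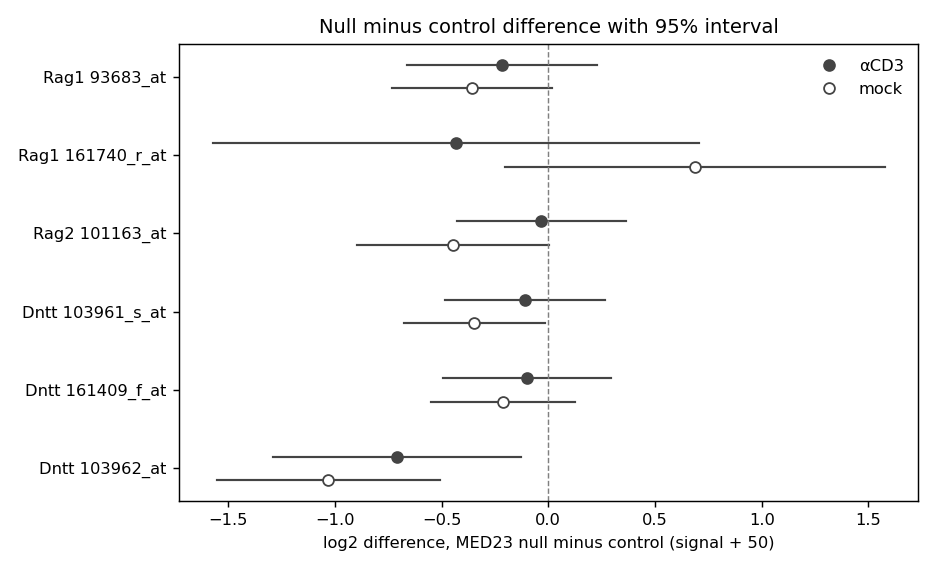
Log2 difference, MED23 null minus control (horizontal axis, on log2(signal + 50)), of each probe set after αCD3 (filled) and in mock (open), with the 95% interval of the limma fit as a line. Only the intervals of Dntt 103962_at in both treatments and of Dntt 103961_s_at in mock leave out 0, and no difference passes after adjustment over all probe sets tested.

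Across the 6 probe sets, the mock difference was below 0 in 5 with a median of -0.35, beside a median of 0.01 over all 9478 probe sets tested, and the exception was Rag1 161740_r_at. After αCD3 it was below 0 in 6 of 6 with a median of -0.16, beside -0.01 over all. None of the 6 passed the test in mock, after αCD3 or over both treatments, and over all probe sets the share called was 0% in each (limma), while 701, 584 and 756 probe sets in that order had an unadjusted p under 0.05. In mock, 5 of the 6 probe sets had both null arrays below all 4 control arrays, as had 8.44% of all probe sets tested. After αCD3 this held for 1 of 6 (Dntt 103962_at) beside 8.61% of all, and over all 12 arrays for the same 1 of 6 beside 0.971% of all. Probe sets of a gene share its transcripts, so that these are 3 genes and not 6 separate measurements. Left without Med23flox replicate 1, the αCD3 count was 2 of 6, with Dntt 161409_f_at added, beside 12.7% of all, and the mock count was 5 of 6 beside 12.7% of all.

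Against each control genotype alone the mock values were close. Minus Lck-Cre, which shares the transgene, the MED23 null difference was -0.30 for Rag1 93683_at, -0.44 for Rag2 and -1.04 for Dntt 103962_at. Minus Med23flox, which shares the floxed alleles, it was -0.41, -0.46 and -1.02 for the same probe sets. Rag1 161740_r_at went the other way, with 0.73 minus Lck-Cre and 0.64 minus Med23flox. After αCD3, Dntt 103962_at differed by -0.76 from Lck-Cre and by -0.65 from Med23flox cells, while Rag2 differed by -0.10 and 0.03. The Rag1 values after αCD3 differed more with the control used, at -0.10 minus Lck-Cre and -0.33 minus Med23flox for 93683_at and at -0.18 and -0.69 in the same order for 161740_r_at. No probe set passed in any of these 4 comparisons (lowest adjusted p = 0.487), in each of which 0% of all probe sets were called and 458 to 732 had an unadjusted p under 0.05. Between the control genotypes, Lck-Cre minus Med23flox in mock, the 6 differences ran from -0.10 to 0.09 (adjusted p from 0.988 to 0.998), with 0% of all probe sets called and 536 at an unadjusted p under 0.05.

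The response to αCD3 was compared within each mouse as the ratio of the αCD3 signal over the mock signal. For Rag1 93683_at the ratio was 1.27 and 0.813 in MED23 null mice, against 0.846 and 0.918 in Lck-Cre and 0.967 and 0.960 in Med23flox mice. The signal was thus lower after αCD3 in 4 of 4 controls, and the null mice lay on both sides of them. For Rag1 161740_r_at the ratio was 0.968 and 0.318 in MED23 null mice, against 1.37 and 0.951 in Lck-Cre and 1.55 in both Med23flox mice.

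For Rag2 the ratio was 1.01 and 1.56 in MED23 null mice, against 0.896 and 1.09 in Lck-Cre and 0.896 and 0.875 in Med23flox mice. Null replicate 2, the highest, is the mouse with the lowest mock signal. For Dntt 103961_s_at the ratio was 0.977 and 1.09 in MED23 null mice, against 0.844 to 0.913 in the 4 controls, without overlap. For Dntt 103962_at it was 1.18 and 1.08 in MED23 null mice, against 0.760 to 1.01 in controls, again without overlap. For Dntt 161409_f_at it was 0.914 and 0.965 in MED23 null mice, against 0.764 to 0.974 in controls, and it was below 1 in 6 of 6 mice.

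None of these responses passed the test. Over all mice the log2 change with αCD3 ran from -0.17 (Dntt 161409_f_at) to 0.04 (Rag2), with adjusted p from 0.724 to 0.996, where 0.359% of all probe sets were called. In control mice it ran from -0.20 to -0.09 for 5 probe sets and was 0.37 for Rag1 161740_r_at (0.148% of all called), and under quantile normalization the value of Rag1 93683_at was 0.02 in place of -0.12. In MED23 null mice it ran from -0.75 to 0.32 (0.0317% of all called). A signal lower after αCD3 in 4 of 4 control mice was seen for 3 of the 6, Rag1 93683_at and the Dntt pair 103961_s_at and 161409_f_at, beside 8.68% of all, and in 6 of 6 mice for 1 of the 6 beside 2.17% of all.

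The difference in response, MED23 null minus control, was above 0 for 5 of the 6 probe sets, with 0.41 for Rag2 (95% interval -0.18 to 1.00), 0.32 for Dntt 103962_at (-0.19 to 0.84) and 0.14 for Rag1 93683_at (-0.44 to 0.72). For Rag1 161740_r_at it was -1.12 (-2.12 to -0.12, unadjusted p = 0.0333, adjusted p = 0.957). Both null mice had a ratio above all controls for 2 of the 6, both of Dntt, beside 6.06% of all. No probe set was called in this comparison (0% of all, with 486 at an unadjusted p under 0.05), and mock signals enter both this difference and the mock comparison.

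Over the 12 arrays, the log2 signals of the brightest probe set of each gene had a correlation of 0.62 between Rag1 and Dntt, 0.68 between Rag2 and Dntt and 0.26 between Rag1 and Rag2, so that the neighbours on chromosome 2 were the least alike of the 3 pairs. The genes whose pattern was most like that of Rag1 93683_at were Zfp472 (r = 0.88), Rab21 (0.88), Angptl4, Sec11a and Nfatc2 (0.85 each). For Rag2 they were Entpd7 (0.89), Ncan, Errfi1, Gga2 and Sema4a (0.83), and for Dntt 103961_s_at Tk2 (0.88), Rgcc, Itgb7, Srebf1 and Lsp1 (0.87). For Dntt 103962_at, named after its values were seen, they were Sema7a (0.94), Tmem266, Errfi1, Ahnak and Ly6d (0.87). Being the highest of many correlations over 12 arrays, these values are high by the choice itself. Some of the genes had low mean signals, such as Tmem266 (97.9), Angptl4 (128), Entpd7 (128) and Nfatc2 (137). Ly6d, a surface protein of lymphocytes, had signals of 884 and 327 in mock MED23 null cells, against 1966 to 4837 in mock controls. After αCD3 they were 761 and 351 in MED23 null cells, against 2525 to 5631 in controls. Like Dntt 103962_at it was lowest in null replicate 2 in both treatments, but it was named for that likeness, so the shared pattern follows from the choice. A dimmer Ly6d probe set went the other way in mock, with low signals of 50.4 to 53.5 in MED23 null and 9.3 to 24.5 in control cells. After αCD3 its groups overlapped.

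**Figure D4:**
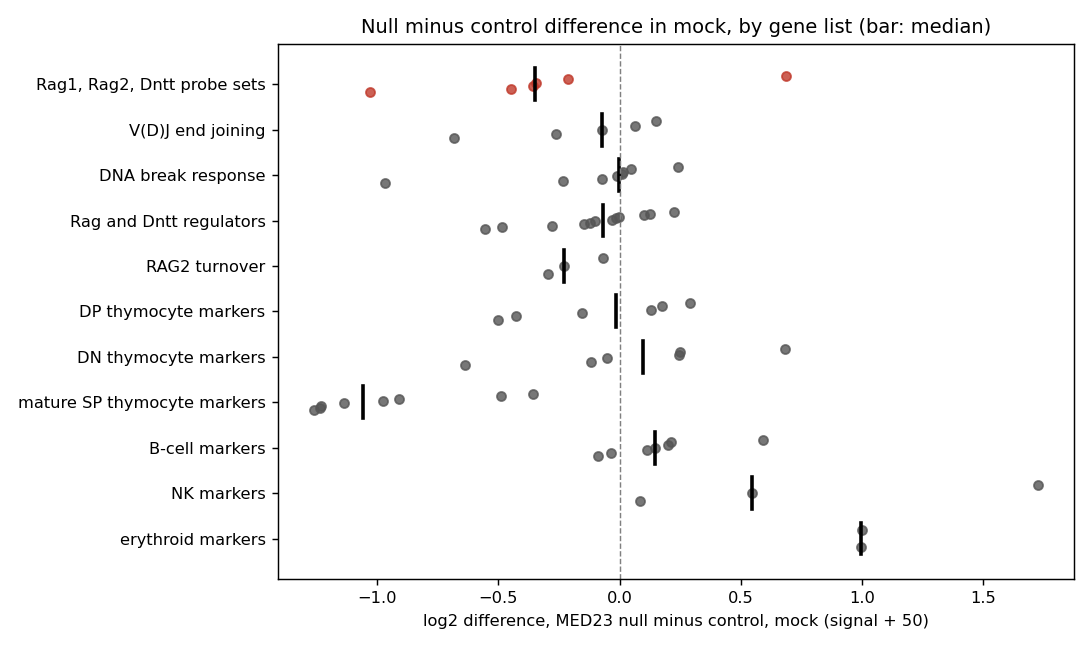
Log2 difference, MED23 null minus control in mock (horizontal axis, on log2(signal + 50)), with a point per Rag1, Rag2 or Dntt probe set (top row) or per gene of each list (rows below) and a bar at the median. The Rag1, Rag2 and Dntt probe sets have a median of -0.35, the lists of end joining, break response and DP markers have medians of -0.07, 0.00 and -0.01, and the mature SP markers have a median of -1.06.

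The factors that help RAG to cut or that rejoin the ends were measured for 5 of 11 genes listed, and none passed the test in mock, after αCD3 or over both treatments. Their median null minus control difference in mock was -0.07. Prkdc, the catalytic subunit of DNA-dependent protein kinase, which opens the sealed ends together with Artemis, had a mean mock signal of 172 ± 12.9 (SD, n = 2) in MED23 null and 307 ± 41.0 (SD, n = 4) in control cells, a difference of -0.68 (SE 0.17, adjusted p = 0.389), and -0.07 after αCD3. Xrcc6, which encodes the end-binding protein Ku70, differed by -0.26 in mock, and Xrcc5, which encodes its partner Ku80, by -0.07. Polm, the polymerase closest in sequence to TdT, had a mean mock signal of 1153 ± 36.1 (SD, n = 2) in MED23 null and 1034 ± 48.1 (SD, n = 4) in control cells, a difference of 0.15 (adjusted p = 0.825).

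Of the genes that sense DNA breaks, 8 of 10 were measured, with 0 called and a median of 0.00 in mock. The largest difference was that of Nbn, a subunit of the complex that binds broken ends, at -0.97 in mock (adjusted p = 0.584) and 0.03 after αCD3, from a mock signal of 34.7 in MED23 null and 114 in control cells. Of the cell cycle genes listed around the turnover of RAG2 protein, which need not act on it in the same direction, 3 of 4 were measured. With 0 called, their median was -0.23 in mock (Cdkn1b -0.30, Cdk2 -0.23 and Ccna2 -0.07). Of the neighbours of the Rag locus, Traf6 differed by -0.02 and Commd9 by 0.08 in mock.

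Among transcription factors known to act on these genes or on the thymocyte stages that express them, 12 of 15 were measured and 0 were called. Their median difference in mock was -0.07, with 9 of 12 below 0. Satb1, a chromatin organiser needed for Rag expression in mouse thymocytes, had a mean mock signal of 14600 ± 1851 (SD, n = 2) in MED23 null and 20513 ± 3090 (SD, n = 4) in control cells, a difference of -0.48 (SE 0.19, adjusted p = 0.641), and -0.37 after αCD3. Id2, which blocks E proteins, differed by -0.55 in mock, Lef1 by -0.28 and Gata3 by 0.22. Tcf3 and Tcf12, which encode the E proteins that bind E-boxes, differed by -0.10 and -0.01. Ikzf1, which encodes Ikaros, a factor that binds the Dntt promoter, differed by 0.12 in mock and -0.78 after αCD3 (SE 0.24, adjusted p = 0.671).

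The makeup of the cells was followed by marker lists, since in RNA of mixed cells fewer cells of a type and less RNA per cell cannot be told apart. The DP markers, of the cells that hold most Rag and Dntt transcript, were measured for 6 of 9 genes with a median of -0.01 in mock and 0 called, and their summed signal was 41871 to 42403 in MED23 null and 44694 to 49768 in control cells. Among them Cd8b1 differed by -0.43, Ets2 by -0.50 and Cd4 by 0.29. The DN markers had a median of 0.10 over 6 genes tested of 7 measured, with summed signals of 3106 to 3344 in MED23 null and 2390 to 2938 in control cells. Kit, a receptor of early precursors, differed by 0.68 (adjusted p = 0.688), Cd44 by -0.64, Notch1 by 0.25 and Hes1 by 0.24. Il2ra and Cd44, defining markers of DN stages, had mock means of 88.1 and 14.2 in MED23 null and 15.1 and 58.1 in control cells, all of them low signals, and Il2ra did not pass the filter.

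The markers of mature SP cells, in which Rag and Dntt are silent, were all lower in MED23 null cells in the fitted values, 8 of 8 measured with a median of -1.06 in mock and -0.56 after αCD3, with 0 called. Their summed signal in mock was 5420 to 5863 in MED23 null and 9628 to 13362 in control cells. This list was drawn up with earlier results of these data known. It holds Klf2, Cd52 and S1pr1, which the study reported as lower, or tending lower, in MED23 null thymocytes. The direction shared by the list is therefore not an independent measure of cell makeup. The largest differences in mock were those of Ccr7, a homing receptor, at -1.26 (adjusted p = 0.328), Cd52 at -1.24 (adjusted p = 0.174), Klf2, a factor of T-cell egress, at -1.23 (adjusted p = 0.738) and Slfn1 at -1.14. The value of Klf2 depended on the control, at -2.24 minus Lck-Cre and -0.23 minus Med23flox. Its mock signals were low, 36.8 to 44.2 in MED23 null and 47.7 to 415 in control cells. The study had reported Cd52 from these arrays, which is not independent of them. By qRT-PCR it also found Cd52 lower in mock MED23 null thymocytes and, with Klf2, in isolated CD4 SP thymocytes. Its flow cytometry gave normal proportions of DN, DP and SP cells in Med23flox/flox;Lck-Cre thymuses with efficient deletion. The NK markers summed to 3710 to 5353 in mock MED23 null and 1304 to 1851 in mock control cells, most of it Gzma (difference 1.73, adjusted p = 0.174), with Prf1 at 0.55 and Klrd1 at 0.09, while the defining NK gene Ncr1 was at 12.4 and 13.1. The erythroid markers summed to 14711 to 37029 in MED23 null and 6153 to 16590 in control cells, which overlap, and Hba-a1 and Alas2 differed by 1.00 each. The B-cell markers, of the other lineage that uses RAG and TdT, summed to 8108 to 8274 in MED23 null and 6830 to 7599 in control cells, and 5 of 7 genes tested were above 0 in mock with a median of 0.15 (Ms4a1 0.59, Blnk 0.21, Ighm 0.20 and Cd79b 0.15). The B-cell precursor markers Vpreb1 and Igll1, at -0.04 and -0.09, were the only ones below 0. In mock the myeloid markers summed to 1171 to 1238 in MED23 null and 845 to 1075 in control cells (Lyz2 differed by 0.65, Adgre1 by -0.28, Cd14 by 0.22 and Csf1r by 0.08), and the epithelial markers to 221 to 293 in MED23 null and 160 to 320 in control cells (Krt18, the only one tested, differed by -0.03). Actin 3′ to 5′ ratios after αCD3, a sign of RNA integrity, were 1.90 and 1.61 in MED23 null and 1.35 to 1.41 in control cells, and in mock 1.44 and 1.63 in MED23 null and 1.35 to 1.60 in control cells. Gapdh 3′ to 5′ ratios after αCD3 were 0.636 and 0.766 in MED23 null and 0.599 to 0.648 in control cells. In mock they were 0.664 and 0.635 in MED23 null and 0.580 to 0.693 in control cells, so that on Gapdh the groups overlapped in both treatments. The part of these cell types and of RNA integrity in the values of Rag1, Rag2 and Dntt was not tested.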

How the data were processed

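Total thymocytes of 6 mice were measured in mock and αCD3 treatment on 12 arrays, with groups taken from the sample labels. The authors deposited intensities on a linear scale, as MAS5 signals per probe set (no MAS5 version is given in the sources used here). The study then scaled arrays by a trimmed mean in Spotfire, and here each array was scaled to mock Lck-Cre replicate 1 by a mean with 2% trimmed at each end. Detection calls were not used here. For arrays there is no read depth, and their number limits the precision.

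Signals entered the tests as log2(signal + 50). The 66 control probe sets of the 12488 on the array were dropped, and the 9478 with a mean signal of 100 or more in any of the 6 conditions were tested with limma 3.58.1 in R 4.3.3 (lmFit and eBayes), with Benjamini-Hochberg adjustment over all of them and a threshold of 0.05. The 12 comparisons were fitted as follows. Responses to αCD3 were fitted on the differences within each mouse, and genotypes were compared within a treatment or on the mean of both. The ratios of means are of linear signals and the differences are of fitted log2 values. Exact permutation tests, tables and figures used Python 3.11.15 with numpy 2.4.6, pandas 2.3.3, scipy 1.17.1 and matplotlib 3.10.9. The mock and αCD3 arrays of a mouse are paired by the mouse in the labels, and their deviations from the group means had correlations of 0.09, 0.15 and 0.06 in Lck-Cre, Med23flox and MED23 null mice. Nothing in the labels pairs mice of different genotypes.

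Symbols come from the platform annotation: 10855 probe sets have 1 symbol (10839 matched to RefSeq by identifier), 396 several and 1237 none. Promoter windows and gene positions come from RefSeq on GRCm38.p6, and no coordinates were taken from the array files. The probe sets described are all those of Rag1, Rag2 and Dntt. From each gene list up to 4 genes with the largest differences in the comparison described were named, each by its brightest probe set, and the 5 genes most like each member by Pearson correlation over 12 arrays. Others in the text, namely Tcf3, Tcf12, Ikzf1, Vpreb1, Igll1, Il2ra, Ncr1, Ly6d and the genes like Dntt 103962_at, were added after their values were seen. The members and lists were chosen with earlier results of these data known. Alternatives were other scalings, pseudocounts and filters, quantile normalization, no replicate block and leaving out each mouse, and after seeing the data the counts without overlap were repeated without Med23flox replicate 1.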

Additional observations from a re-analysis of the deposited data

Results flagged for a closer look

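The response of Rag2 to αCD3 in the 4 control mice held 1 value far from the others. Lck-Cre replicate 2 had a ratio of αCD3 over mock of 1.09, while the other 3 controls lay between 0.875 and 0.896, and the gap to its neighbour was 0.891 of the whole range on the log2 scale. In that mouse the mock signal, at 2002, was the lowest of the controls. Chance alone marks about 1 in 20 groups in this way.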

How the results depend on the processing

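Each of the 72 differences of the 6 probe sets was recomputed under 11 alternatives, which gave 792 values. None passed the threshold, the lowest adjusted p being 0.0683 for Dntt 103962_at over both treatments without the replicate block. Of these values, 759 kept their direction and 33 did not, 6 of them with all mice kept. Under quantile normalization the change with αCD3 of Rag1 93683_at was 0.024 over all mice and 0.022 in controls, and that of Rag1 161740_r_at over all mice was 0.000566. The same setting gave -0.039 for Dntt 161409_f_at in Lck-Cre minus Med23flox and -0.041 for Rag2 in MED23 null minus Med23flox after αCD3, where trimming 10% gave 0.034 for Dntt 161409_f_at. Leaving out 1 mouse at a time changed a direction as follows. In MED23 null minus control, Rag1 161740_r_at ranged from -1.17 to 0.30 after αCD3 and from -0.26 to 0.51 over both treatments, Rag2 from -0.093 to 0.026 after αCD3, and the difference in response of Rag1 93683_at from -0.18 to 0.46. In MED23 null minus Lck-Cre after αCD3, Rag1 93683_at ranged from -0.27 to 0.063 and Rag1 161740_r_at from -0.92 to 0.56. In MED23 null minus Med23flox after αCD3, the ranges were -1.42 to 0.051 for Rag1 161740_r_at, -0.044 to 0.11 for Rag2 and -0.044 to 0.017 for Dntt 161409_f_at. In the change with αCD3, they were -0.12 to 0.29 for Rag1 161740_r_at, -0.072 to 0.091 for Rag2 and -0.099 to 0.028 for Dntt 103962_at over all mice, and -0.30 to 0.34 for Rag1 93683_at and -0.034 to 0.13 for Dntt 103961_s_at in MED23 null mice. In Lck-Cre minus Med23flox, they were -0.78 to 0.61 for Rag1 161740_r_at, -0.16 to 0.13 for Rag2, -0.049 to 0.12 for Dntt 161409_f_at and -0.12 to 0.17 for Dntt 103962_at. The cause was not tested. The count of all probe sets called with αCD3 over all mice was 34 as reported, 54 without the replicate block and 8 to 19 with a mouse left out. In controls it was 14, 42 without the block and 3 to 9 with a mouse left out. In MED23 null mice it was 3, 1 each with a pseudocount of 16, no filter or quantile normalization, 0 without the block and 0 to 1 with a mouse left out. For MED23 null minus control over both treatments it was 0, and 26 without the replicate block, which counts the arrays of a mouse as separate. A block on replicate number across genotypes, where the number is only a name (correlations of deviations from -0.01 to 0.12), left 0 called in each genotype comparison. With 2 null mice, the exact two-sided permutation test in the form used here cannot go below 0.133.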
